A study of Arabidopsis thaliana with 4 samples.

Results

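Chromosome 1, the longest chromosome of Arabidopsis thaliana, was examined for contacts made within the chromosome in endosperm and in leaf. The members were all pairs of 100 kb bins of chromosome 1 (0 to 30.5 Mb, TAIR10) whose bins lie 5 or more apart, a distance of at least 0.5 Mb. The choice used position alone and no measured contact. In both tissues 289 bins were measured well enough to be used, which gave 40504 pairs of the 135231 such pairs within the 5 chromosomes (30.0%). They held 1472377 contacts in endosperm and 986126 in leaf.

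The study asked how chromatin is arranged in different tissues, and mapped contacts by a modified Hi-C, in which crosslinked chromatin is cut and religated so that each sequenced product joins DNA that lay close together. There were 2 groups, F1 endosperm and F1 leaves of 4-week-old plants, both from crosses of Columbia-0 wild type with Columbia-0 wild type and both untreated and from plants grown in long days, with 2 replicates each. Endosperm, the seed tissue that nourishes the embryo, has more maternal than paternal copies of each chromosome, which the maps do not separate, and neither seed age nor the way the tissue was isolated is given in the sources used here. The replicates of a tissue were deposited as 1 pooled map, with 25033672 contacts in endosperm and 18557893 in leaf. No replicate spread can therefore be given and no test across replicates was possible. Contact maps hold no expression, so the tissue labels could not be checked against marker genes.

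In plant nuclei the gene-poor DNA beside a centromere, the pericentromere, is packed as heterochromatin and tends to gather in compact bodies called chromocentres, while the gene-rich arms loop out of them. Contact between loci falls with their distance along the chromosome, and the steepness of that decay reflects how a chromosome is folded. Sharply bounded domains such as those of mammals are not a general feature of Arabidopsis chromosomes.

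Chromosome 1 was divided into the north arm (0 to 12.9 Mb, 127 used bins), the pericentromere (12.9 to 16.9 Mb, 30 used of 40 bins), the south arm up to a break in the leaf map (16.9 to 22.7 Mb, 55 bins) and the south arm past it (22.8 to 30.5 Mb, 76 bins). Gene cover, the share of a bin taken by protein-coding genes in the gene table, separated these regions. Its median was 66.7% in the north arm, 60.04% and 64.2% in the south arm before and past the break, and 9.13% in the pericentromere, which held 231 genes against 3475 in the north arm. A rule on gene cover alone gave the same limits of 12.9 and 16.9 Mb.

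Levels of contact are given as the balanced signal of a pair over the tissue's mean for pairs on different chromosomes, so 1 is the level of unlinked DNA. That mean was 25.7 in endosperm and 19.4 in leaf, where each bin totalled at least 39632 and 29020.5. It was a slightly smaller part of the total in endosperm, so differences of levels would be lower if taken over total contacts. Small differences of levels depend on this reference. Contact over expectation is the signal over the mean at the same distance from 0 to 22.7 Mb, or within the segment itself past the break. Each difference is endosperm over leaf on the log2 scale with a 95% interval from the contact counts. The intervals cover counting error only.

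The leaf map of chromosome 1 was interrupted in the bin at 22.7 to 22.8 Mb, called here the break bin, and the endosperm map was not. Bins 0.5 Mb apart on opposite sides of the break bin were in contact at 5.73 times the level of unlinked DNA in endosperm (5.23 to 6.23, 517 contacts) and at 0.913 times in leaf (0.692 to 1.13, 66 contacts). At 2 Mb the levels across the break were 2.42 in endosperm and 1.06 in leaf, and at 5 Mb they were 1.73 and 0.945. In leaf, contact across the break thus lay near the level of unlinked DNA from 0.5 to 5 Mb, with no decay. In endosperm the values across it were close to those of the flanks, where contact at 0.5 Mb was 5.76 before and 5.51 past the break. The flanks of the leaf map decayed with distance, from 3.91 at 0.5 Mb to 1.97 at 5 Mb before the break and from 3.54 to 1.72 past it.

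**Figure D1:**
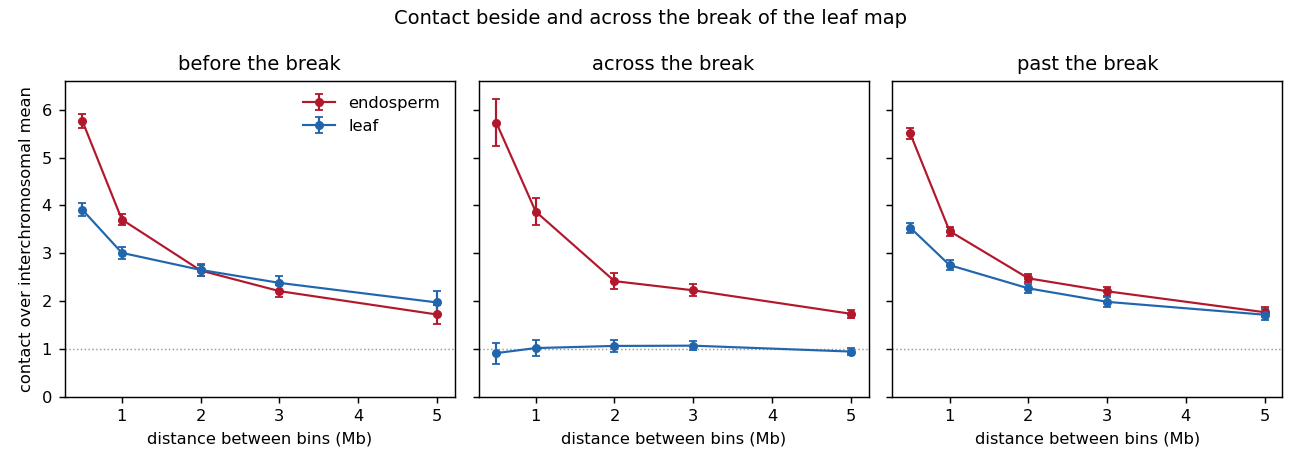
Contact (balanced signal over the interchromosomal mean, vertical axis) against distance between bins in Mb, for pairs before, across and past the break, in endosperm and leaf; points are means over pairs and bars are 95% counting intervals. Across the break the leaf values stay between 0.913 and 1.07 while those of endosperm decline from 5.73 at 0.5 Mb to 1.73 at 5 Mb.

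In leaf both sides of the break contacted chromosome 2 above the level of unlinked DNA. The stretch at 20.7 to 22.7 Mb was in contact with 0 to 1.5 Mb of chromosome 2 at 1.01 in endosperm and 2.77 in leaf, and the stretch at 22.8 to 24.8 Mb with 1.5 to 3.5 Mb of chromosome 2 at 1.02 in endosperm and 2.45 in leaf. The opposite combinations were at 0.977 and 1.01 in endosperm and at 0.977 and 0.996 in leaf. The break bin itself contacted both sides in both tissues, at 2.43 in endosperm and 1.75 in leaf with 16.9 to 22.3 Mb, and at 2.29 in endosperm and 1.60 in leaf with 23.2 to 30.5 Mb. The cause of the break was not tested. The parts before and past it are described apart, and for every leaf value that spans it the tissue and the break cannot be told apart.

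Within every segment contact fell more steeply with distance in endosperm than in leaf. The exponent of decay from 0.5 to 5 Mb, the slope when both contact and distance are on log10 scales, was -0.408 in endosperm and -0.285 in leaf in the north arm, a difference of -0.123 (-0.132 to -0.113). In the south arm before the break it was -0.449 in endosperm and -0.251 in leaf, a difference of -0.198 (-0.220 to -0.176). Past the break it was -0.446 in endosperm and -0.325 in leaf, a difference of -0.122 (-0.136 to -0.107). The tissue difference was thus largest in the south arm before the break and alike in the other arm segments. In the pericentromere the exponents were -0.742 in endosperm and -0.589 in leaf (difference -0.153, -0.201 to -0.105). That fit reached only 3.5 Mb, with 31 distances against 46 in the arm segments, so its values are not on the same range. Its pairs also changed with distance, from mostly on the same side of the centromere to across it.

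The endosperm excess was largest at short distances in all 3 arm segments. Between 0.5 and 0.9 Mb mean contact in the north arm was 4.48 in endosperm and 3.08 in leaf (log2 0.54, 0.52 to 0.56), and between 1 and 1.9 Mb it was 2.95 and 2.49 (log2 0.25, 0.23 to 0.27). Past the break the log2 differences over the same ranges were 0.53 and 0.24, close to those of the north arm. Before the break they were smaller, at 0.40 (0.37 to 0.43) and 0.13 (0.10 to 0.16). The slope difference depended on the distances fitted. Fitted from 0.5 to 2 Mb it was -0.26 in the north arm, -0.25 in the south arm before the break and -0.25 past it, and fitted from 1 to 5 Mb it was -0.061, -0.17 and -0.058.

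At 3 to 5 Mb, a range chosen after the decay curves had been seen, the arm segments went different ways. North arm contact was higher in endosperm, at 2.08 against 1.87 in leaf (log2 0.15, 0.14 to 0.17), and so was contact past the break, at 2.02 in endosperm and 1.82 in leaf (log2 0.15, 0.12 to 0.17). Before the break contact at these distances was lower in endosperm, at 2.03 against 2.25 in leaf (log2 -0.15, -0.18 to -0.11). In the north and south arms of chromosomes 3 and 5, whose centromeres are also central, the log2 difference at 3 to 5 Mb was 0.19 and 0.18 on chromosome 3 and 0.10 and 0.09 on chromosome 5. Without the 10 bins next to the break the difference before the break was -0.16.

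Windows of 58 bins beside the pericentromere, as long as the south arm segment before the break and also chosen after values were seen, gave log2 differences at 3 to 5 Mb of 0.00 (-0.03 to 0.04) on the north side of chromosome 1, 0.04 and 0.12 on chromosome 3, and 0.04 and -0.09 (-0.13 to -0.06) on chromosome 5. The south arm of chromosome 5 therefore also had less contact in endosperm here (2.02 against 2.16 in leaf). The leaf level before the break, 2.25 (2.21 to 2.29), was above the leaf levels of the other 6 windows, which ran from 1.87 to 2.16, and the endosperm level, 2.03, was inside their range of 1.93 to 2.15.

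**Figure D2:**
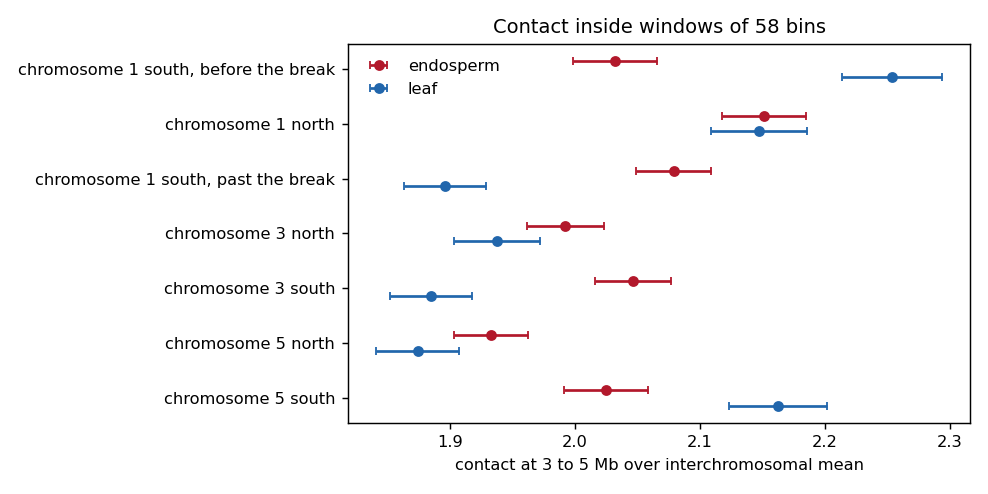
Mean contact at 3 to 5 Mb over the interchromosomal mean (horizontal axis) inside windows of 58 bins, in endosperm and leaf, for 3 windows of chromosome 1 and 4 windows beside the pericentromeres of chromosomes 3 and 5; bars are 95% counting intervals. Leaf exceeds endosperm before the break of chromosome 1 (2.25 against 2.03 in endosperm) and in the south of chromosome 5.

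The pericentromere, whose pairs change in kind with distance, did not decay smoothly in leaf. Its contact was 6.79 in endosperm and 6.02 in leaf at 0.5 Mb, and 3.55 in endosperm and 2.48 in leaf at 1.1 Mb. At 1.6 Mb it was 2.43 in endosperm and 3.40 in leaf, and at 1.9 Mb 2.28 and 3.40. The leaf curve thus had a shoulder at 1.3 to 2.1 Mb, between 2.89 and 3.40, which the endosperm curve lacked (1.98 to 2.81 over the same distances). These means rest on few pairs, 11 at 1 Mb and 10 at 2 Mb. Of the 83 pairs at 0.5 to 1 Mb, 40 lay north and 40 south of the centromere, whereas all 120 pairs at 2 to 3 Mb spanned it. At 1 to 2 Mb contact across the centromere was 0.938 of the distance expectation in endosperm and 1.48 in leaf. On the same side it was 1.01 in endosperm and 0.820 in leaf in the north, and 0.729 and 0.685 in the south. The shape of the leaf curve was not tested apart from this change of pairs. The curves came together again near 2.7 Mb, at 1.67 in endosperm and 1.74 in leaf.

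**Figure D3:**
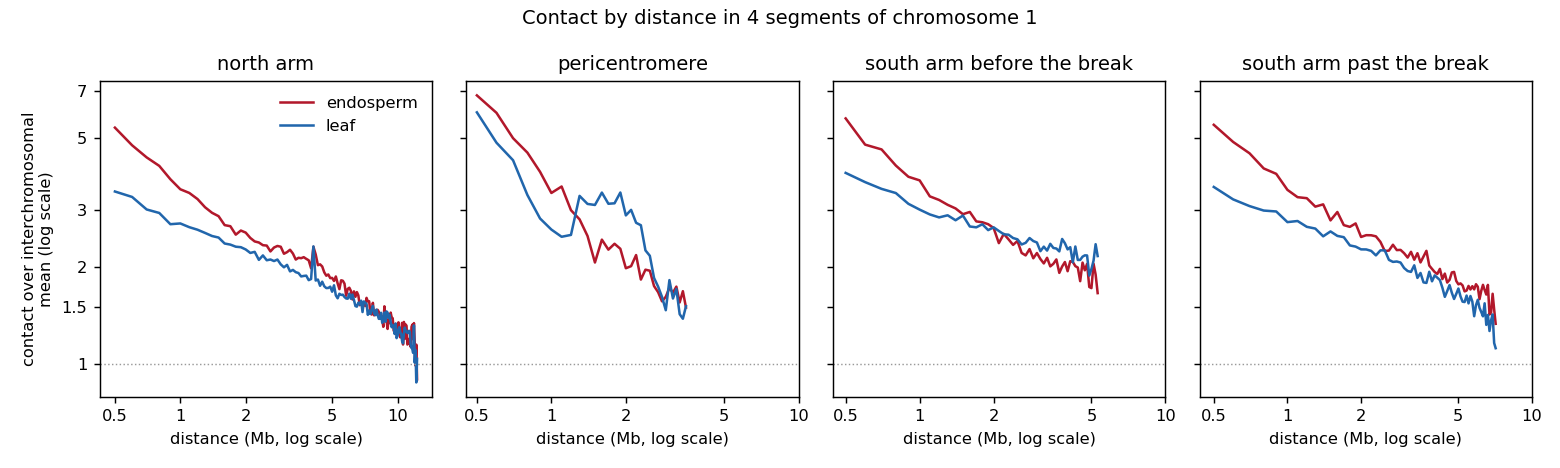
Contact over the interchromosomal mean (log scale) against distance in Mb (log scale) in 4 segments of chromosome 1, in endosperm and leaf; lines join the means at each 100 kb step of distance. Endosperm is above leaf at 0.5 Mb in each segment, the lines cross near 2 Mb before the break, and the leaf line of the pericentromere has a shoulder at 1.3 to 2.1 Mb.

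Over the longest distances before the break the order of the tissues turned. Contact at 5 to 9.9 Mb was 1.43 in endosperm and 1.36 in leaf (log2 0.07, 0.06 to 0.07). At 10 to 14.9 Mb it was 1.15 in both (log2 -0.01, -0.02 to 0.01), a difference not detectable at this depth. At 15 to 19.9 Mb it was 1.096 in endosperm and 1.16 in leaf (log2 -0.09, -0.10 to -0.07), and at 20 to 22.6 Mb 1.07 and 1.12 (log2 -0.06, -0.11 to -0.01). In single bins the share of signal from over 5 Mb away was taken among partners at least 0.5 Mb off and before the break. It was lower in endosperm in 124 of 127 north arm bins (median 42.98% in endosperm, 45.8% in leaf). In the south arm before the break 52 of 55 bins were lower (50.4% and 51.2%). The endosperm excess at short distances enters the total of this share. A lower share thus need not mean less contact past 5 Mb, which at 5 to 9.9 Mb was higher in endosperm over unlinked DNA. The size of that small excess depends on the reference for the levels.

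Contact between the arms was low in both tissues, and its tissue difference depended on the zone. Over the distance expectation, the north arm contacted the south arm before the break at 0.9994 in endosperm (0.995 to 1.00) and 1.00 in leaf (0.995 to 1.01), with a log2 ratio of -0.00 (-0.01 to 0.01). At long distances the expectation comes mostly from such pairs, which holds this ratio near 1 by construction. As levels, contact differed by zone. The inner parts of the arms, 8.6 to 12.9 Mb with 16.9 to 19.8 Mb, were in contact at 1.34 in endosperm and 1.24 in leaf (log2 0.11, 0.09 to 0.14). The outer north arm, 0 to 4.3 Mb, contacted the same part of the south arm at 1.09 in endosperm and 1.15 in leaf (log2 -0.09, -0.11 to -0.07), and the part at 19.8 to 22.7 Mb at 1.11 and 1.17 (log2 -0.08, -0.11 to -0.06). The middle north arm, 4.3 to 8.6 Mb, was at 1.19 in both tissues with 16.9 to 19.8 Mb (log2 -0.00, -0.02 to 0.02), and at 1.13 in endosperm and 1.17 in leaf with 19.8 to 22.7 Mb (log2 -0.06, -0.08 to -0.03). Before the break, then, the inner zones met more in endosperm and the outer north arm met the south arm less.

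Past the break, north arm contact was 1.11 in endosperm (1.11 to 1.12) and 1.06 in leaf (1.06 to 1.07), or log2 0.07 (0.06 to 0.08). Over unlinked DNA, each of the 6 combinations of zones was higher in endosperm. The smallest of their differences were log2 0.03 to 0.04, and the direction of differences this small depends on the reference for the levels. Whether the levels of the whole north arm with the south arm past the break lie above that of unlinked DNA depended on balancing. With counts before balancing the log2 levels were -0.044 in endosperm and -0.12 in leaf, both below it, while the difference was 0.07. In leaf these are contacts across the break. The outermost zones, 0 to 4.3 Mb with 26.7 to 30.5 Mb, stood above the other 5 combinations in both tissues, at 1.24 in endosperm and 1.17 in leaf, although they are the farthest apart.

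The chromosome ends were in more contact still. Between the outermost 5 used bins of the north end and of the south end it was 1.97 in endosperm (1.86 to 2.08) and 2.00 in leaf (1.87 to 2.13), a log2 difference of -0.02 (-0.15 to 0.10). No difference between the tissues was detectable for the pair of ends, which lie on opposite sides of the break. The bins at 22.2 to 22.7 Mb, just before the break, contacted the south end at 1.31 in endosperm and 1.08 in leaf, and the north end at 0.982 in endosperm and 1.12 in leaf (log2 -0.20, -0.37 to -0.02). Those at 22.8 to 23.3 Mb, just past it, contacted the pericentromere at 1.28 in endosperm and 0.927 in leaf (log2 0.47, 0.39 to 0.55).

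Arms laid side by side from the centromere outward would bring positions at equal distance from it together. This was measured for the north arm with the south arm before the break only. Mirror positions past the break were left out. There the outermost zones, 0 to 4.3 Mb with 26.7 to 30.5 Mb, were at 1.24 in endosperm and 1.17 in leaf as levels over unlinked DNA. Among the pairs measured, positions within 1 Mb of mirror positions were in contact at 0.993 of the expectation in endosperm (0.981 to 1.00) and 0.970 in leaf (0.957 to 0.983). Neither map held an excess among these pairs. Relative to positions over 3 Mb from the mirror this was a log2 value of -0.02 in endosperm and -0.06 in leaf, a difference of 0.04 (0.01 to 0.07). The interval held 0 with counts before balancing (0.02, -0.01 to 0.05), with the expectation over the whole chromosome (0.02, -0.01 to 0.05) and with pericentromere limits of 11.9 and 17.9 Mb (0.03, -0.00 to 0.06). The same measure was 0.08 in endosperm and 0.10 in leaf on chromosome 3, and 0.02 in endosperm and -0.03 in leaf on chromosome 5.

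The pericentromere was less set apart from the arms in endosperm than in leaf. Its internal contact at 0.5 to 3.9 Mb was 0.910 of the distance expectation in endosperm (0.896 to 0.925) and 1.09 in leaf (1.07 to 1.11), a log2 difference of -0.25 (-0.29 to -0.22). That leaf lay above the expectation depended on balancing. With counts before balancing the log2 values were -0.37 in endosperm and -0.16 in leaf, both below it, with a difference of -0.21. Contact of the pericentromere with the flanking arms was 0.926 in endosperm and 0.923 in leaf (log2 0.00, -0.02 to 0.02), with 0.957 and 0.963 for the north arm and 0.896 and 0.885 for the south arm before the break. This value had no settled direction. It was -0.021 (-0.041 to -0.0011) with counts before balancing, -0.082 (-0.10 to -0.061) with the expectation over the whole chromosome, 0.049 (0.018 to 0.079) with limits of 13.9 and 15.9 Mb and -0.13 (-0.15 to -0.12) with limits of 11.9 and 17.9 Mb. As levels over unlinked DNA and over all distances, contact of the pericentromere was higher in endosperm with the inner north arm (1.85 in endosperm, 1.68 in leaf, log2 0.14, 0.12 to 0.16) and the inner south arm at 16.9 to 19.8 Mb (1.93 and 1.69, log2 0.19, 0.16 to 0.21). Segregation, the log2 ratio of contact within the classes to contact between them, was 0.06 in endosperm and 0.18 in leaf (difference -0.12, -0.15 to -0.10).

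The difference was largest between the 2 sides of the centromere. The sides at 12.9 to 14.9 Mb and at 14.9 to 16.9 Mb were in contact with each other at 0.837 of the expectation in endosperm and 1.07 in leaf (log2 -0.36, -0.40 to -0.31). Contact on the same side differed less, at 1.14 in endosperm and 1.17 in leaf on the north side (log2 -0.04, -0.11 to 0.03), and 0.973 and 1.06 on the south side (log2 -0.12, -0.19 to -0.05). The contrast across the centromere was strongest at 1 to 2 Mb, at 0.938 in endosperm and 1.48 in leaf (log2 -0.66, -0.74 to -0.57). It was -0.32 (-0.39 to -0.25) at 2 to 3 Mb and -0.07 (-0.18 to 0.04) at 3 to 3.9 Mb. On the same side at 1 to 2 Mb the difference went the other way in the north, with 1.01 in endosperm and 0.820 in leaf (log2 0.31, 0.13 to 0.48).

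The size of this difference depended on the limits drawn around the pericentromere. With limits of 13.9 and 15.9 Mb the log2 difference within the pericentromere was -0.74, and with limits of 11.9 and 17.9 Mb it was -0.05. With the wide limits segregation turned round, to -0.02 in endosperm and -0.15 in leaf, a difference of 0.13 (0.11 to 0.15). Single bins varied most in leaf. There, contact of a bin with the rest of the pericentromere ranged from 0.702 to 1.37, with the 8 used bins from 13.6 to 14.5 Mb between 1.24 and 1.36, and the 5 bins at the southern edge (16.4 to 16.9 Mb) between 0.702 and 0.929. In endosperm the whole range was 0.704 to 1.06. Of the 30 bins 24 were lower and 6 higher in endosperm, and all 6 lay within the outer 0.4 Mb on either side.

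**Figure D4:**
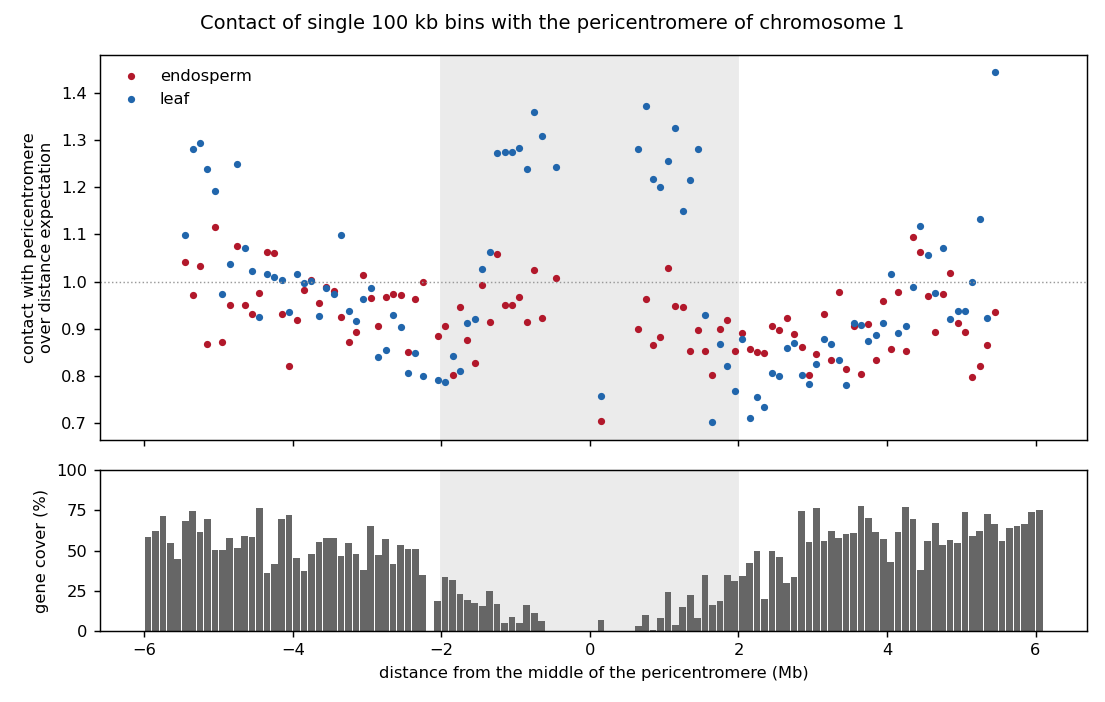
Upper panel, mean contact of each 100 kb bin with the pericentromere at 0.5 to 3.9 Mb over the distance expectation, in endosperm and leaf, against distance from the middle of the pericentromere in Mb; the shaded band is the pericentromere. Lower panel, gene cover in percent. Most leaf points in the inner band lie at 1.2 to 1.4 and drop to 0.7 to 0.9 at its edges, while endosperm points of the band lie between 0.70 and 1.06.

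Gene cover followed the same split, a comparison made after the single bins had been seen. Of the 14 pericentromeric bins with gene cover under 15%, 14 had lower contact with the rest of the pericentromere in endosperm (median 0.948 in endosperm, 1.28 in leaf), and 12 had higher contact with the arms in endosperm (0.844 in endosperm, 0.721 in leaf). Of the 16 bins with more genes, 10 were lower within the pericentromere in endosperm (medians 0.903 and 0.916) and 12 were lower with the arms (0.999 in endosperm, 1.13 in leaf). Across the 30 bins, Pearson's r of gene cover with contact within the pericentromere was -0.18 in endosperm and -0.65 in leaf, and with contact with the arms 0.70 in endosperm and 0.82 in leaf. Bins of 1 map share their partners and are not independent. The bin at 15 to 15.1 Mb, which held 3.78 times the median raw count of the chromosome in endosperm and 5.34 times in leaf, had low contact in both tissues (0.704 and 0.757), and without it the first pair of r values was -0.32 and -0.74.

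Other chromosomes with a central centromere went the same way. Contact within the pericentromere, with limits set by gene cover, was 0.857 in endosperm and 1.00 in leaf on chromosome 3 (log2 -0.23, -0.25 to -0.21) and 0.854 and 1.02 on chromosome 5 (log2 -0.26, -0.28 to -0.23). The difference in segregation was -0.06 (-0.08 to -0.05) on chromosome 3 and -0.14 (-0.17 to -0.12) on chromosome 5, on either side of the -0.12 of chromosome 1. The difference in decay was smaller on chromosome 3 (-0.068 and -0.095 in its arms) and larger on chromosome 5 (-0.14 and -0.15) than in the north arm of chromosome 1. These values are from single maps and describe them; the chromosomes are not replicates.

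Blocks of 1 Mb were compared to locate the differences. Contact over expectation passed a log2 difference of 0.32 either way in 5 of 307 block pairs of chromosome 1 (1.63%), 2 higher (0.651%) and 3 lower (0.977%) in endosperm. On chromosomes 3, 4 and 5 the share was 3.23% (28 of 866), with 1.39% higher and 1.85% lower. The count depended on the expectation: taken over the whole of chromosome 1, which in leaf includes pairs across the break, 13 pairs passed (4.23%), 1 higher and 12 lower in endosperm. Each of the 5 pairs first counted had at least 1 block in or across the edge of the pericentromere. Of all 307 pairs, 13 lay within or between such blocks, 60 joined 1 with the north arm and 30 joined 1 with the south arm.

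The largest fall was between 14 to 15 Mb and 15 to 16 Mb, at 0.9798 in endosperm and 1.71 in leaf (log2 -0.80, -0.92 to -0.69). This fall rests on 24 pairs of bins, as only 10 bins were used from 13.9 to 15.9 Mb. It was followed by 13 to 14 Mb with 15 to 16 Mb (0.848 and 1.09, log2 -0.37) and 14 to 15 Mb with 16 to 17 Mb (0.797 and 1.00, log2 -0.33). The next falls joined 16 to 17 Mb with 21 to 22 Mb (1.02 and 1.27) and 17 to 18 Mb with 22 to 22.7 Mb (1.05 and 1.305), both at log2 -0.31. The first 3 of these join parts of the pericentromere, and the last 2 join the southern edge of the pericentromere or the inner south arm with blocks toward the break.

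The largest rise was between 12 to 13 Mb, at the northern edge of the pericentromere, and 14 to 15 Mb (0.973 in endosperm, 0.697 in leaf, log2 0.48, 0.36 to 0.60). Next came 15 to 16 Mb with 17 to 18 Mb (0.828 and 0.654, log2 0.34), and 12 to 13 Mb with 15 to 16 Mb (0.719 and 0.591, log2 0.28). Not all pairs of the pericentromere with its flanks rose. The pair of 11 to 12 Mb with 13 to 14 Mb was lower in endosperm (0.998 and 1.08, log2 -0.11, -0.17 to -0.05), and 12 to 13 Mb with 13 to 14 Mb was at 1.118 in endosperm and 1.0996 in leaf (log2 0.02, -0.03 to 0.08); both were chosen after their values were seen. The other 2 rises were inside single blocks of the north arm, at 8 to 9 Mb (1.03 and 0.833, log2 0.31) and 4 to 5 Mb (0.932 and 0.765, log2 0.29).

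The outer north arm, with limits set after the block values had been seen, held small rises. All 21 block pairs inside 0 to 6 Mb were higher in endosperm, with a median log2 difference of 0.15 and a range of 0.06 to 0.29, whereas inside 6 to 13 Mb 14 were higher and 14 lower (median 0.01). In the south arm before the break 17 of 19 block pairs were lower in endosperm (median -0.15), which is not independent of the values at 3 to 5 Mb. Between the arms 35 were higher and 37 lower. Over all 272 block pairs before the break the median was 0.01, and the block values of the tissues correlated across block pairs at r = 0.72. Past the break the 35 block pairs correlated at r = 0.12, with SDs of log2 contact of 0.08 in endosperm and 0.11 in leaf against 0.13 and 0.19 before it. Block pairs share bins and are not independent.

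**Figure D5:**
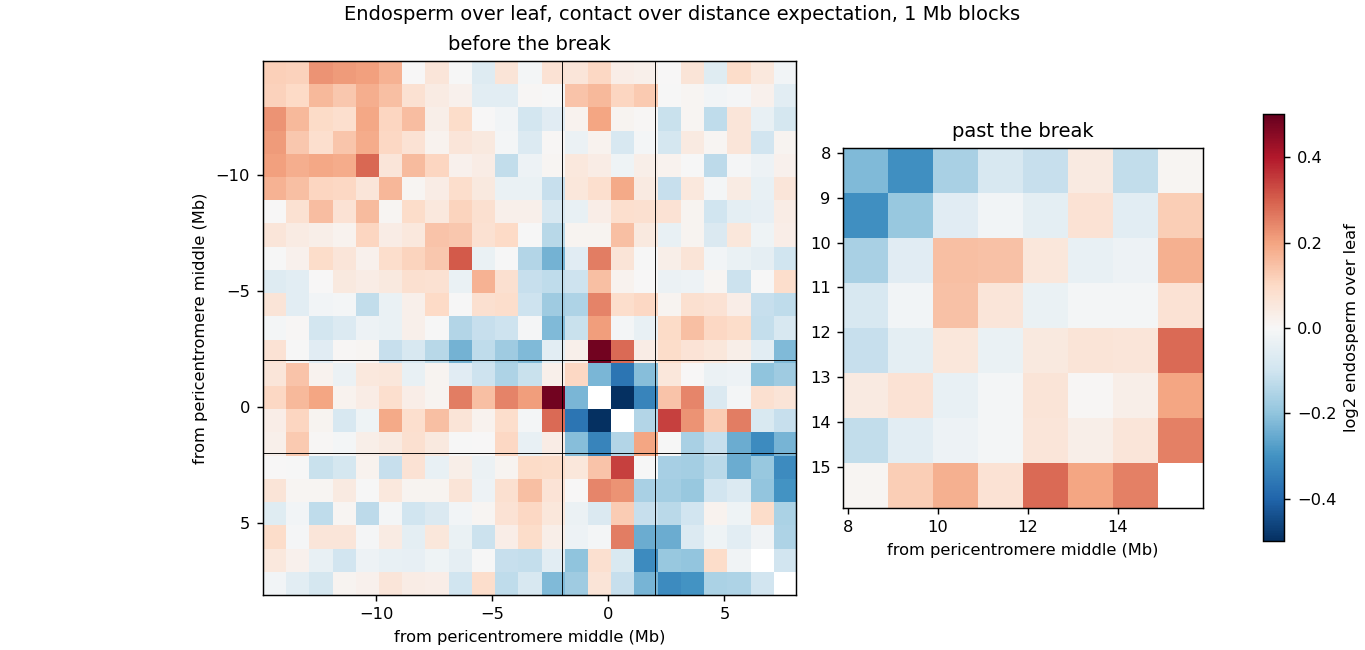
Log2 ratio of endosperm over leaf of contact over the distance expectation for pairs of 1 Mb blocks, before the break (left, thin lines mark the pericentromere) and past it (right); axes give distance from the middle of the pericentromere in Mb, blue is lower and red higher in endosperm, the scale stops at -0.5 and 0.5, and the last block of each panel holds 7 bins. Falls gather at the centre of the pericentromere (lowest -0.80) and in the south arm before the break, and rises in the outer north arm.

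Boundaries, bins with a local minimum of contact across them, were shallow and rare. With 10 bins on each side, 5 of 242 bins were boundaries in endosperm (2.07%) and 7 in leaf (2.89%), and 0 lay within 1 bin of a boundary of the other tissue. With 5 bins on each side there were 15 boundaries in endosperm and 17 in leaf, of which 8 were shared. The profiles behind them were related, with r = 0.74 across 119 bins of the north arm, 0.58 across 48 bins before the break, 0.49 across 18 pericentromeric bins and 0.06 across 57 bins past the break. The SD of the profile over the 242 bins was 0.08 in endosperm and 0.14 in leaf on the log2 scale, so the endosperm profile was flatter. The gap was widest in the north arm (0.086 in endosperm, 0.17 in leaf) and smallest past the break (0.072 and 0.081).

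The deepest endosperm boundaries lay at 4.8 to 4.9 Mb (0.18 below the mean of the profile), 23.9 to 24.0 Mb (0.16), 6.0 to 6.1 Mb (0.15), 6.9 to 7.0 Mb (0.15) and 20.8 to 20.9 Mb (0.10). The deepest leaf boundaries lay at 16.4 to 16.5 Mb (0.25), 5.3 to 5.4 Mb (0.24), 4.3 to 4.4 Mb (0.19), 6.7 to 6.8 Mb (0.18) and 7.6 to 7.7 Mb (0.17). The leaf boundary at 16.4 to 16.5 Mb falls where single bins change from high to low contact with the pericentromere, and the endosperm profile had only a shallow dip in the same bin, which did not reach the depth of 0.1 asked of a boundary (0.01 in endosperm, -0.26 in leaf). The north arm, with 119 of the 242 bins, held 3 of the 5 endosperm boundaries and 5 of the 7 leaf boundaries.

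Contacts within the arms were also sorted by gene cover. Pairs of bins both in the lowest 20% of gene cover were in contact at 1.07 of the expectation in endosperm (1.06 to 1.09) and 1.15 in leaf (1.13 to 1.17). Pairs both in the highest 20% were at 1.095 in endosperm (1.08 to 1.11) and 1.04 in leaf (1.02 to 1.06), and mixed pairs at 1.04 and 1.06. With the north arm and the south arm before the break pooled, gene-poor bins met each other less and gene-rich ones more in endosperm. The contrast of like with unlike pairs did not differ detectably at this depth (log2 0.06 in endosperm, 0.04 in leaf, difference 0.02, -0.02 to 0.05). The arms themselves went different ways. At 0.5 to 3.9 Mb, contact within the north arm was 1.02 of the expectation in endosperm and 0.978 in leaf (log2 0.065). Within the south arm before the break it was 1.02 in endosperm and 1.12 in leaf (log2 -0.13). The levels of the gene cover classes were not split by arm, so gene cover was not tested apart from position.

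The strongest pair of chromosome 1 was the same in both tissues. The bins at 8.7 to 8.8 Mb and 12.8 to 12.9 Mb were in contact at 10.9 times the expectation in endosperm (338 contacts) and 18.4 times in leaf (437 contacts). The 63 pairs within 4 bins of it had medians of 1.05 in endosperm and 1.22 in leaf and reached 1.88 and 2.02, well under the pair itself. Each of the 2 bins adjoins a bin with no signal in either map, at 8.8 and 12.7 Mb. The next strongest pair of endosperm, 9.5 to 9.6 Mb with 19.9 to 20 Mb, was at 3.02 in endosperm (103 contacts) and 1.87 in leaf (48). The next of leaf, 9.5 to 9.6 Mb with 19.7 to 19.8 Mb, was at 1.85 in endosperm (56 contacts) and 2.59 in leaf (61). The bin at 9.5 to 9.6 Mb is part of both. These pairs were picked as the highest of many and are given as a description.

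The bins of 13 endosperm and leaf genes were looked up. The bin of MEA, a Polycomb gene expressed from the maternal copy in endosperm, lies at 0.5 to 0.6 Mb, and 59.4% of its signal, counted as above, came from over 5 Mb away in endosperm against 64.0% in leaf. For the bins of ZOU and MINI3, transcription factors needed for endosperm breakdown and growth, the shares were 47.5% and 52.7% in endosperm and 50.1% and 54.9% in leaf. For the bin of VIM5, a methylcytosine-binding protein gene, they were 52.2% in endosperm and 55.7% in leaf, and for YUC10, an auxin synthesis gene, 45.2% and 44.8%. The bin shared by the light-harvesting genes LHCB1.1, LHCB1.2 and LHCB1.3 had 45.9% in endosperm and 48.5% in leaf, and that of PSAF, a photosystem I subunit, 44.4% and 46.3%. Of the bins before the break, all but that of YUC10 had a lower share in endosperm, as did nearly all arm bins before the break. The endosperm excess at short distances enters these shares too.

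Past the break, the bin of PHE1, PHE2 and AGL23, MADS-box genes of which PHE1 is active in endosperm from the paternal copy, lies at 24.2 to 24.3 Mb, and that of RBCS1A, a Rubisco small subunit, at 25 to 25.1 Mb. Their shares of signal from over 5 Mb away, among partners past the break, were 12.1% and 3.21% in endosperm and 9.82% and 2.30% in leaf. Both were higher in endosperm, whereas past the break 34 bins were lower and 16 higher. The other bins there have no used partner so far away. The RBCS1A bin has few, and 1 of them, at 30.3 to 30.4 Mb, had 69 contacts in endosperm and 19 in leaf. Their contact with the pericentromere was 1.08 and 1.21 in endosperm and 0.857 and 0.852 in leaf. It was higher in endosperm in 75 of the 76 bins past the break (medians 1.11 in endosperm and 0.922 in leaf). In leaf this contact spans the break, and the tissue and the break cannot be told apart. The PHE1 bin held 2.04 times the median raw count in endosperm and 1.06 times in leaf.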

How the data were processed

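The submitters' processing notes name HiC-Pro 2.9.0, Bowtie2 and the TAIR10 build. The deposited values are a contact signal per pair of 100 kb or 200 kb bins, balanced by iterative correction and pooled over replicates 1 and 2 of a tissue, per the labels. No source used here names the restriction enzyme, the read filters or the balancing settings. Balancing gives each bin about the same total, so it hides copy number.

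Whole counts were recovered from the signal (each value is a count times 1 factor per bin), with 100% of pairs whole within 0.01. The median count was 30 per pair in endosperm and 21 in leaf. Bins listing under 50% of partners in either tissue were left out. Intervals are the value ± 1.96 counting errors, with expectations held fixed. Gene cover came from a TAIR10.1 gene table used for names and bins only (protein-coding genes), in which all 13 named genes matched. ZOU, MINI3 and PHE2 stand there as RGE1, WRKY10 and AGL38, and the LHCB1 genes as CAB1 to CAB3. The regions named were each class of bins, the 5 largest rises and 5 largest falls among block pairs, the 5 deepest boundaries per tissue and the bins of 13 genes. The span over which a boundary must be the minimum (3 bins either way), the 15% limit on gene cover and the list of strongest pairs were also set late. Members and lists were chosen with earlier results of these data known. Count recovery, the decay exponent, contact within the pericentromere and the deepest boundary were tested on simulated data, and the other measures were not. The simulated pericentromere was set against an expectation from outside it, unlike the value reported. Work used Python 3.11.15 and numpy 2.4.6.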

Additional observations from a re-analysis of the deposited data

Results flagged for a closer look

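Contact at 3 to 5 Mb differed in direction between segments of the same chromosome. The log2 ratio of endosperm over leaf was 0.15 in the north arm and -0.15 in the south arm before the break. These segments differ in length. In a north window of 58 bins beside the pericentromere, as long as the south arm segment, the ratio was 0.00 (-0.03 to 0.04). The difference between the segments was not tested, as each tissue is 1 map.

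In data outside the chromosome, leaf contact with chromosome 2 stood above the endosperm level on both sides of the break. It was 1.01 in endosperm and 2.77 in leaf for 20.7 to 22.7 Mb with 0 to 1.5 Mb of chromosome 2, and 1.02 in endosperm and 2.45 in leaf for 22.8 to 24.8 Mb with 1.5 to 3.5 Mb of chromosome 2.

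The raw count of the bin at 24.2 to 24.3 Mb was 2.04 times the chromosome median in endosperm and 1.06 times in leaf, which balancing removes from the deposited signal.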

How the results depend on the processing

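Values are endosperm over leaf on the log2 scale unless named otherwise. Of the alternatives tried, 40 stayed within the counting error of the value reported, 26 moved past it (counts by over 1.5 times) and 1 reversed. The difference in decay exponent was -0.26, -0.25 and -0.25 in the north arm and before and past the break when fitted from 0.5 to 2 Mb, and -0.061, -0.17 and -0.058 from 1 to 5 Mb. With counts before balancing, arm to arm contact was -0.015, contact within the pericentromere -0.21, its contact with the arms -0.021, segregation -0.076 and contact at 3 to 5 Mb before the break -0.19, and 3 boundaries were shared. With 200 kb bins, contact within the pericentromere was -0.30 and segregation -0.16. With pericentromere limits of 13.9 and 15.9 Mb, contact within it was -0.74, with the arms 0.049 and segregation -0.42. With limits of 11.9 and 17.9 Mb these were -0.051, -0.13 and 0.13, so segregation reversed. With the expectation taken over the whole chromosome, arm to arm contact was -0.10, contact within the pericentromere -0.32 and with the arms -0.082, and 13 block pairs passed the fold, 1 higher and 12 lower in endosperm. With 2 Mb blocks 1 pair passed. Shared boundaries numbered 8 with 5 bins on each side and 1 when matched within 2 bins. Where no reason is stated, the cause was not tested. The alternatives for contact at 3 to 5 Mb and the north arm decay without the bins of the strongest pair were chosen after seeing the data. No paired analysis was possible because the replicates of each tissue were deposited as 1 pooled map, and for the same reason no replicate could be left out. Pairs with few contacts limit single bins more than region means.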
